A study of Mus musculus with 24 samples.

Results

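The myelin genes of mature oligodendrocytes were followed in the hippocampus of aged mice as 9 gene symbols, Mbp, Mog, Mag, Mobp, Cnp, Mal, Opalin, Cldn11 and Ermn. They were picked by name as genes of the finished myelin sheath, and each of the 9 was found once among the 49568 symbols listed for every library and passed the filter on low counts that left 20187 genes for testing. Poly(A) RNA was sequenced in 24 libraries of 1 male mouse each, all 21 to 23 months old and of C57-Bl/6J background. Wild-type (WT) mice and mice homozygous for a point mutation that inactivates a kinase domain of MSK1 (MSK1 KD) came from separate lines, and each genotype was kept in standard housing (WTSH and KDSH) or in enriched housing (WTEE and KDEE). Enrichment began at 18 months of age and consisted of rat cages, larger than the standard ones, fitted with toys, ladders and a wheel for running. Enriched cages also held more males each than standard cages, so group size differed with housing. The study left out WTSH 4, WTSH 7 and KDSH 6 because of ribosomal RNA and poor correlation with their groups, so 21 libraries were compared, 4 WTSH, 6 WTEE, 5 KDSH and 6 KDEE, and the libraries left out are described apart. The questions were whether myelin genes differed with housing or with MSK1 genotype, and how closely they moved together from mouse to mouse.

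Myelin is the stack of membrane that oligodendrocytes wrap around axons, and it lets action potentials travel fast. In the hippocampus most of it lies in the white matter tracts that border or cross the grey matter, so a dissected hippocampus carries a varying amount of it. The proteins fall into those that hold the compacted layers together (Mbp and Mobp), those at the surfaces that face the axon or the outside (Mag and Mog), those of the cytoplasm-filled channels and the cytoskeleton (Cnp and Ermn) and those of the membrane and its junctions (Mal, Cldn11 and Opalin). In bulk RNA, fewer cells of a type and less RNA per cell cannot be told apart.

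Between 27410239 and 71907130 read pairs were counted on genes in the 21 libraries, with a median of 47549989, and the share of counted pairs that fell on no single gene was 13.1 to 21.3%. Among the libraries left out this share reached 50.2%. Levels are given as CPM, gene counts scaled to a common library size after TMM correction for composition, and as CPM per kilobase of merged exons (RPKM) where genes are compared with each other. The mRNA of MSK1 itself, Rps6ka5, was at 23.3 ± 2.1 CPM (SD, n = 4) in WTSH, 21.7 ± 3.94 (n = 6) in WTEE, 24.1 ± 0.46 (n = 5) in KDSH and 23.8 ± 0.578 (n = 6) in KDEE. The mutation is a point change within the coding sequence and the counts do not read it, so these levels check no genotype. MSK1 KD and WT mice differed in Rps6ka5 by 0.089 on the log2 scale, with an interval of -0.061 to 0.238. WTEE 10 stood apart with 13.9 CPM of Rps6ka5, while the other 20 mice had 21.2 or more.

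The stretches of DNA just upstream of the genes are shown for the 4 members in which the core motif of SOX proteins was found. Sox10, a transcription factor of the oligodendrocyte lineage, belongs to that family. RefSeq windows of the GRCm38.p6 build were matched by symbol for 8 of the 9 members, all but Mbp. The 250 bases upstream of the RefSeq gene start were searched for ACAAAG on both strands, which reads CTTTGT on the opposite strand. Gene positions given below are from GENCODE M21, and there Mobp, Cnp and Mag start within these 250 bases. The first 200 of these bases are printed 5′ to 3′ on the strand of the gene, with the motif in capitals.
Mobp, chr9:120149492-120149691, plus strand: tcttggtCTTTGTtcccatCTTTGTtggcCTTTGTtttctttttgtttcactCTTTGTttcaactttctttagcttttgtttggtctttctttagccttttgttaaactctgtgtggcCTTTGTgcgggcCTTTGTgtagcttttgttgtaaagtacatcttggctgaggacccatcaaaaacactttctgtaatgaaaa
Mag, chr7:30914914-30915113, minus strand: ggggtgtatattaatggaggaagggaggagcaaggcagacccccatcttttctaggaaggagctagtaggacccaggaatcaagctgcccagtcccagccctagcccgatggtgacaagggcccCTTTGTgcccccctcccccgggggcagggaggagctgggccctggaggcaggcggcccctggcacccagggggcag
Cnp, chr11:100574689-100574888, plus strand: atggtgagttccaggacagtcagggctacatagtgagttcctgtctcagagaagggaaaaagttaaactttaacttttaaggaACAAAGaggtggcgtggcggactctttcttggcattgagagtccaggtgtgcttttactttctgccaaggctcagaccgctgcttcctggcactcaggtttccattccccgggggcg
Opalin, chr19:41077164-41077363, minus strand: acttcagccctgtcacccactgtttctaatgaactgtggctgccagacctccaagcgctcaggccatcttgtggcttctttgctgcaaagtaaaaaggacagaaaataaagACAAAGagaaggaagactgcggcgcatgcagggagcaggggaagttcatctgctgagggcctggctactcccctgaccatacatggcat

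The window of Mobp held 6 matches, all on the opposite strand, and it was the only 1 of 27025 mouse windows with that many (0.0037%). Mag, Cnp and Opalin held 1 match each, and 16.5% of all windows held at least 1. No match was found for Mog, Mal, Cldn11 and Ermn. A match is a run of letters and not a bound site, and no binding was measured in these mice. Whether the motif bears on the levels of the members or on their covariation was not tested.

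The 9 genes lie at 9 places on 8 chromosomes of GRCm38 in the GENCODE M21 annotation, with only Mal and Ermn on the same one, and all are protein-coding. The counts are of reads over all exons of a gene, coding and untranslated. The genes spanned a wide range of levels. Per length, Mbp was highest with a mean of 407 RPKM over the 21 mice, followed by Mobp (153), Cnp (110), Mal (84.5), Cldn11 (82.8), Mag (60.2), Mog (37.9), Ermn (22.2) and Opalin (9.9). Mal and Cldn11 were neighbours in this order that differed by less than their spread between mice, which was 15.9 and 15.1% of the mean. The exons of 3 members overlapped those of another gene and the counting ignored strand, so a part of their counts cannot be assigned: 154 bases of Cnp lay over Dnajc7, 237 bases of Ermn over Galnt5 and 79 bases of Mobp over Gm38642. The summed level of the 9 members was 4660 to 6800 CPM in WTSH, 5240 to 6700 in WTEE, 4340 to 6300 in KDSH and 5230 to 6780 in KDEE.

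Myelin genes had higher mean levels in enriched than in standard-housed mice of both genotypes, but no member passed the test, and in every member the groups overlapped. Pooled over genotypes, the fitted difference was between 0.17 on the log2 scale for Ermn and 0.37 for Opalin, which is 1.13 to 1.29 times the level in standard housing. These differences were of the size of the spread between mice, whose SD within groups was 0.16 to 0.33 on the log2 scale. The number of the 9 standard-housed mice that lay below the lowest of the 12 enriched mice was 7 for Mag, Mog and Mal, 6 for Mbp, Mobp and Cldn11, 5 for Ermn and 4 for Cnp and Opalin. The values are given below by kind of myelin protein, as the lowest, median and highest for the groups of 6.

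Mbp, the cytoplasmic protein that zips the membrane layers together, was at 2840, 2850, 2970 and 4100 CPM in WTSH mice 5, 23, 2 and 19. In WTEE it ranged from 3100 through a median of 3740 to 4070 CPM. In KDSH it was at 2590, 2790, 2860, 3210 and 3630 CPM in mice 8, 24, 1, 3 and 18, and in KDEE it ranged from 3170 through 3960 to 4000. WTSH 19 had the highest Mbp of all 21 mice although it was standard-housed, and the other 3 WTSH mice lay below all 6 WTEE mice. The fitted difference between enriched and standard housing was 0.26 ± 0.079 (SE) on the log2 scale, with a 95% confidence interval of 0.095 to 0.42 and an adjusted p of 0.196 in edgeR's quasi-likelihood test.

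Mobp, a small basic protein of compact myelin (chr9:120149707-120181484, plus strand), was at 792, 855, 880 and 1280 CPM in WTSH 2, 5, 23 and 19 and at 776, 830, 861, 926 and 1310 CPM in KDSH 24, 8, 1, 3 and 18. In WTEE it ranged from 997 through 1130 to 1300 CPM, and in KDEE from 923 through 1100 to 1440. The same mice, WTSH 19 and KDSH 18, stood far above the rest of their groups. The pooled housing difference of Mobp was 0.25 ± 0.10 on the log2 scale (adjusted p = 0.236, edgeR).

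Mag, the adhesion molecule of the innermost layer that contacts the axon (chr7:30899176-30914873, minus strand), had the smallest spread of the 9, with an SD within groups of 0.163 on the log2 scale. It was at 189, 206, 221 and 282 CPM in WTSH 5, 23, 2 and 19 and between 236 and 285 in WTEE, with a median of 265. In KDSH 8, 24, 3, 1 and 18 it was at 185, 204, 228, 229 and 250 CPM, and in KDEE it ranged from 231 through 266 to 298. Of the 9 standard-housed mice 7 lay below the lowest enriched mouse at 231 CPM, and WTSH 19 and KDSH 18 did not. Its pooled difference of 0.24 ± 0.070 on the log2 scale had the smallest p of the members, 0.0021 unadjusted and 0.186 after adjustment (edgeR).

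Mog, a surface protein of the outermost layer that is made late in oligodendrocyte maturation (chr17:37010743-37023398, minus strand), was at 47.9, 56.5, 56.6 and 76.4 CPM in WTSH 5, 2, 23 and 19 and ranged from 57.8 through 70 to 78.8 in WTEE. In KDSH 8, 24, 1, 3 and 18 it was at 50.2, 51.1, 53.1, 56.3 and 74.3 CPM, and in KDEE it ranged from 62.1 through 72.2 to 75.1. Again 7 of the 9 standard-housed mice were below every enriched mouse and the same pair was not. The pooled difference of Mog was 0.26 ± 0.084 on the log2 scale (adjusted p = 0.2, edgeR).

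Among the members of the cytoplasmic channels and the cytoskeleton, the phosphodiesterase Cnp (chr11:100574904-100591729, plus strand) was at 322, 357, 364 and 476 CPM in WTSH 5, 2, 23 and 19 and at 296, 335, 347, 355 and 455 CPM in KDSH 8, 24, 1, 3 and 18. It ranged from 355 through 436 to 453 CPM in WTEE and from 387 through 452 to 462 in KDEE. Its pooled difference was 0.21 ± 0.077 on the log2 scale. Ermn, an actin-binding protein of late oligodendrocytes (chr2:58045113-58052864, minus strand), was at 60.5, 69.6, 75.9 and 105 CPM in WTSH 5, 2, 23 and 19 and at 61.4, 63.5, 68.2, 75.1 and 95.4 CPM in KDSH 8, 24, 1, 3 and 18. It ranged from 70.7 through 81.3 to 97.9 CPM in WTEE and from 75.2 through 91.5 to 96 in KDEE, and WTSH 19 had the highest Ermn of the 21 mice. Ermn had the smallest pooled difference, 0.17 ± 0.092 on the log2 scale with an interval of -0.018 to 0.36. In WT mice alone it was 0.073 ± 0.13, and it was -0.030 without WTSH 5.

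Of the membrane proteins, Mal, a proteolipid of membrane rafts (chr2:127633226-127656695, minus strand), was at 197, 198, 204 and 270 CPM in WTSH 23, 2, 5 and 19 and at 180, 187, 193, 204 and 290 CPM in KDSH 24, 8, 1, 3 and 18. It ranged from 208 through 238 to 293 CPM in WTEE and from 215 through 257 to 298 in KDEE. The pooled housing difference of Mal was 0.23 ± 0.087 on the log2 scale. Cldn11, the claudin that forms the tight junctions of central myelin (chr3:31149920-31164324, plus strand), was at 125, 127, 135 and 181 CPM in WTSH 5, 23, 2 and 19 and at 111, 127, 135, 148 and 163 CPM in KDSH 24, 8, 1, 3 and 18. It ranged from 137 through 168 to 192 CPM in WTEE and from 137 through 172 to 183 in KDEE, and its pooled difference was 0.26 ± 0.081. Opalin, a membrane glycoprotein of oligodendrocytes (chr19:41061710-41077113, minus strand), had the lowest level and varied most. It was at 16.9, 26.3, 26.6 and 33.5 CPM in WTSH 5, 2, 23 and 19 and at 14.8, 22.5, 23, 25.5 and 35.2 CPM in KDSH 8, 24, 3, 1 and 18. In WTEE it ranged from 23.5 through 33.2 to 40.7 CPM and in KDEE from 28.7 through 31.9 to 35.3, so the highest mouse had 2.75 times the Opalin of the lowest. Opalin had the largest fitted difference with housing, 0.37 ± 0.13 on the log2 scale, and an adjusted p of 0.214 (edgeR).

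**Figure D1:**
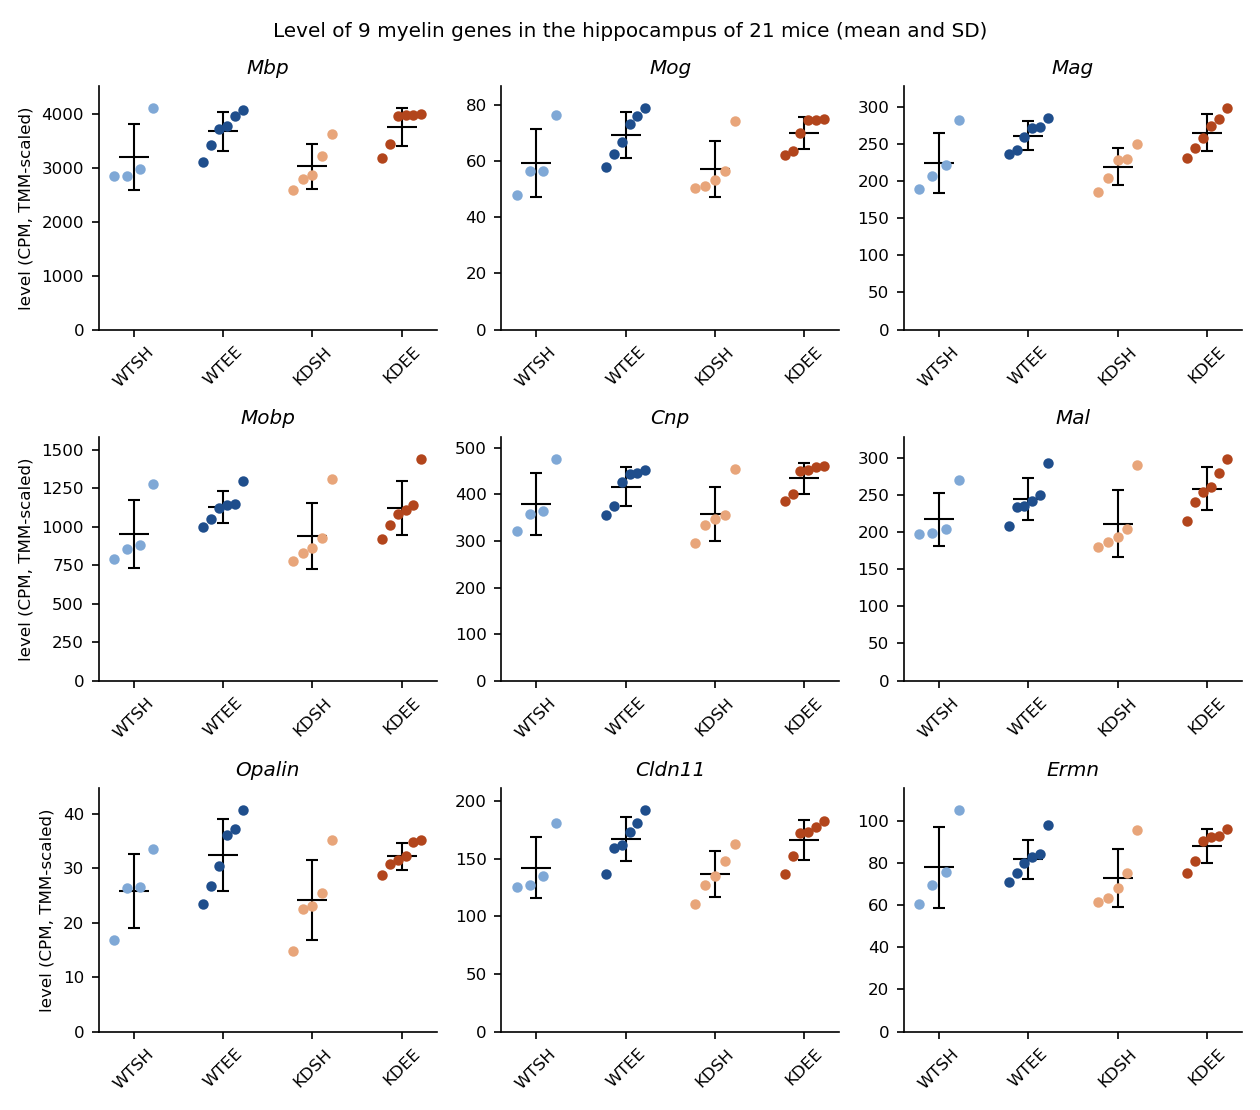
Level of each of the 9 myelin genes in CPM after TMM scaling (vertical axes from 0), with 1 point per mouse in 4 groups and the mean and SD in black. WTSH 19 and KDSH 18 lie among or above the enriched mice in all 9 genes, and the number of the 9 standard-housed mice below the lowest enriched mouse runs from 4 for Cnp and Opalin to 7 for Mag, Mog and Mal.

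In WT mice the members differed between housings by 0.073 to 0.33 on the log2 scale (WTEE minus WTSH), with adjusted p from 0.651 to 0.84. In MSK1 KD mice they differed by 0.25 to 0.41 (KDEE minus KDSH), with adjusted p from 0.359 to 0.466. The threshold for a call was an adjusted p under 0.05 in edgeR's quasi-likelihood test and an absolute log2 fold change over 0.38. It was passed by 0 of the 9 members in either genotype, where 0.0% of all genes tested were called, and by 0 of 9 in the pooled comparison, where 1 gene was called (0.00495%). The Wald test of DESeq2 also called 0 of 9 members in each comparison, and its smallest adjusted p of a member in the pooled comparison was 0.0613. At an unadjusted p under 0.05, 1 of 9 members was higher in WTEE (Mag), against 3.95% of all genes, and 8 of 9 were higher in KDEE (all but Mobp), against 5.64%. In the pooled comparison 8 of 9 were higher at that level (all but Ermn), against 9.77%. At any p, all 9 members were higher in enriched mice in each of the 3 comparisons, where 51.5% of genes in WT mice, 50.4% in MSK1 KD mice and 51.9% in the pooled comparison were. The members move together, so these counts do not stand for 9 separate observations. The ranges of the groups overlapped in all 9 members in both genotypes, while they were apart for 0.986% of genes between WTSH and WTEE and for 1.84% between KDSH and KDEE.

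Single libraries weighed on these counts. Without WTSH 19, 8 of 9 members had an unadjusted p under 0.05 in WT mice in place of 1, while the share of all genes at that level in either direction was 7.55% in place of 6.55%, and the smallest adjusted p of a member in the pooled comparison was 0.0896. Without WTEE 21 the count in WT mice was 4 (11.8% of genes), without WTEE 16, KDSH 18 or KDEE 20 it was 2, and without WTSH 2, 5 or 23, WTEE 11, 13 or 17, KDSH 1, KDEE 12 or KDEE 22 it was 0. Over the libraries left out in turn this share was 3.62 to 11.8% in WT mice. In MSK1 KD mice 11.6% of genes were at that level in either direction. The count of 8 was 3 without KDSH 8 (9.14% of genes), 4 without KDSH 24 (8.31%) and 5 without KDEE 22 (10.8%). It was 6 without KDSH 1, KDSH 3 or KDEE 15 and 7 without KDEE 12 or KDEE 14. It rose to 9 without KDSH 18 (13.8%), KDEE 20 (15.5%) or WTSH 19. Without WTEE 10 it stayed at 8, with 22.1% of genes at that level. The smallest adjusted p of a member was then 0.112 in place of 0.359 (edgeR). The difference between the housing effects of the genotypes (KDEE minus KDSH, less WTEE minus WTSH) was 0.0058 to 0.20 on the log2 scale, with intervals that ranged from -0.47 to 0.62 over the 9 members and an adjusted p of 1 for each (0.0% of genes called), so the effect of housing was not shown to differ between WT and MSK1 KD mice. The sign of this difference was not stable, since 6 of 9 members changed sign without WTSH 19 (-0.167 to 0.0256), 6 of 9 with all 24 libraries (-0.0973 to 0.221) and 7 of 9 without the libraries rich in choroid plexus markers described below (-0.122 to 0.027).

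Genotype comparisons gave values close to 0 for myelin genes. Pooled over housing, MSK1 KD mice differed from WT mice by -0.052 to 0.017 on the log2 scale over the 9 members. The widest interval was that of Opalin, -0.32 to 0.22, and for the other 8 the intervals lay between -0.22 and 0.20. KDSH differed from WTSH by -0.095 to -0.017, and KDEE differed from WTEE by -0.015 to 0.11. In each of the 3 genotype comparisons 0 of 9 members were called (0.0% of genes), and 0 of 9 had an unadjusted p under 0.05 in edgeR. The share of all genes at that level in either direction was 1.0% for KDSH against WTSH and 4.99% for KDEE against WTEE. In the pooled comparison it was 1.9%, with 153 genes higher and 230 lower. With shares this small, a count of 0 of 9 does not set the members apart from other genes. The signs of these small differences were not stable, and without WTSH 19 all 9 members were higher in KDSH than in WTSH, by 0.041 to 0.16.

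**Figure D2:**
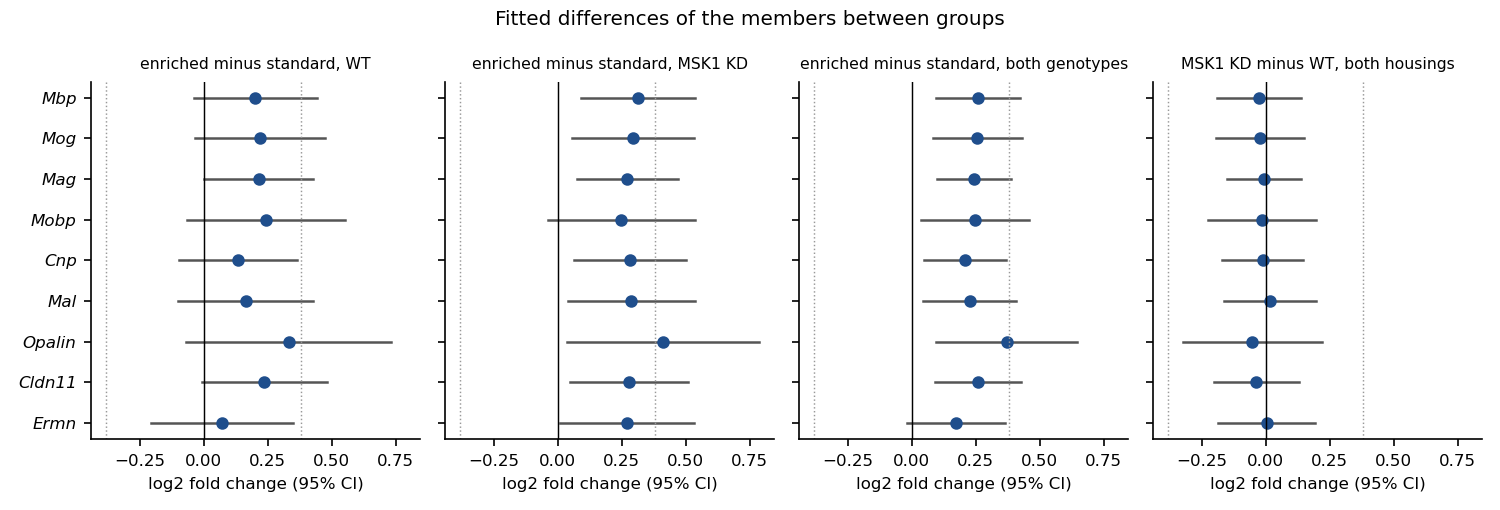
Fitted log2 fold change of the 9 members with 95% confidence intervals in 4 comparisons, with dotted lines at the threshold of 0.38 in either direction. Housing differences lie to the right of 0 for all 9 members, genotype differences lie around 0, and every housing comparison uses the same mice as the pooled one.

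From mouse to mouse, the members moved as a block. Each mouse was described by the mean over the 9 genes of its log2 difference from the average of the 21 mice. This mean was -0.119 ± 0.27 (SD, n = 4) in WTSH, 0.0976 ± 0.142 (n = 6) in WTEE, -0.18 ± 0.242 (n = 5) in KDSH and 0.131 ± 0.132 (n = 6) in KDEE. The 12 enriched mice lay between -0.114 and 0.25. Of the 9 standard-housed mice, 7 lay below that range, from -0.419 to -0.144, and in these 7 mice 0 of 9 members were above the average. The remaining pair was among the highest of all mice, WTSH 19 at 0.268 and KDSH 18 at 0.209, with 9 of 9 members above the average in both. The lowest mouse, KDSH 8, had 0.748 times the average level, and its Opalin was 0.939 below the average on the log2 scale. The 4 lowest mice, KDSH 8, WTSH 5, KDSH 24 and KDSH 1, were all standard-housed.

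The libraries that the study left out had low or middling myelin genes when all 24 libraries were scaled together. WTSH 7 was the lowest of all, at -0.463 on the log2 scale, and 7 of its 9 members were below every WTSH mouse that was kept. Its Opalin was at 13.2 CPM, against 16.4 to 32.7 in the kept WTSH mice. WTSH 4 was at -0.257, with 3 of 9 members below the kept mice (Mbp, Cnp and Cldn11), and its Ermn at 84.7 CPM was within their range of 58.9 to 102. KDSH 6 was at -0.0288, with 9 of 9 members within the range of the kept KDSH mice. With all 24 libraries in the fit, 7 of 9 members had an unadjusted p under 0.05 in WT mice and 9 of 9 in the pooled comparison, whose smallest adjusted p of a member was 0.0679. The share of all genes at that level in either direction was then 18.3% in WT mice and 25.6% in the pooled comparison, against 6.55 and 18.9% with 21 libraries, and 0 of 9 were called in any comparison.

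**Figure D3:**
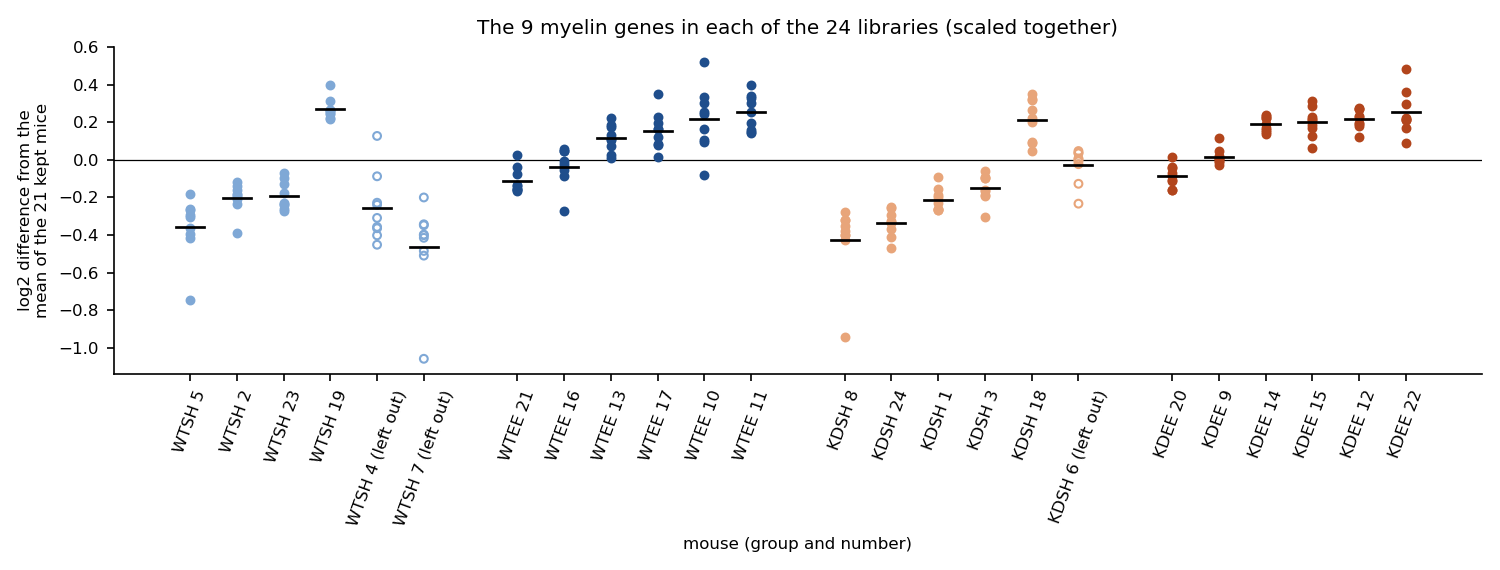
Log2 difference of each of the 9 members (points) and their mean (black bar) from the average of the 21 kept mice, for 24 mice ordered by their mean within each group, with the 3 libraries left out as open points. WTSH 19 and KDSH 18 lie at the height of the enriched mice, and the lowest single value is that of Opalin in WTSH 7.

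Group means were then removed, so that what remained was the difference between mice of the same group. Over the 21 mice the 36 pairs of members had a Pearson r of 0.645 to 0.969 with a median of 0.856. These values are descriptions, since the genes come from the same libraries and share their depth and dissection. Mog and Cnp were the closest pair (0.969), and Mal and Opalin the least close (0.645). Cnp followed the mean of the other 8 members most closely, with r = 0.98, followed by Mog (0.966), Mbp (0.941), Ermn (0.907), Cldn11 (0.903), Mal (0.877), Mag (0.868), Mobp (0.855) and Opalin (0.804). The level of Cnp relative to the other 8 varied within groups with an SD of only 0.0376 on the log2 scale, against 0.213 for Opalin. Of the 20178 tested genes outside the members, 64 (0.317%) followed the members at least as closely as Opalin did, and the median r of these genes was -0.0103. The variation between mice of one group that edgeR estimated beyond counting noise was 11.5% for Mag to 20.7% for Opalin, and its median over the 6669 genes at or above the level of Opalin was 9.57%.

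**Figure D4:**
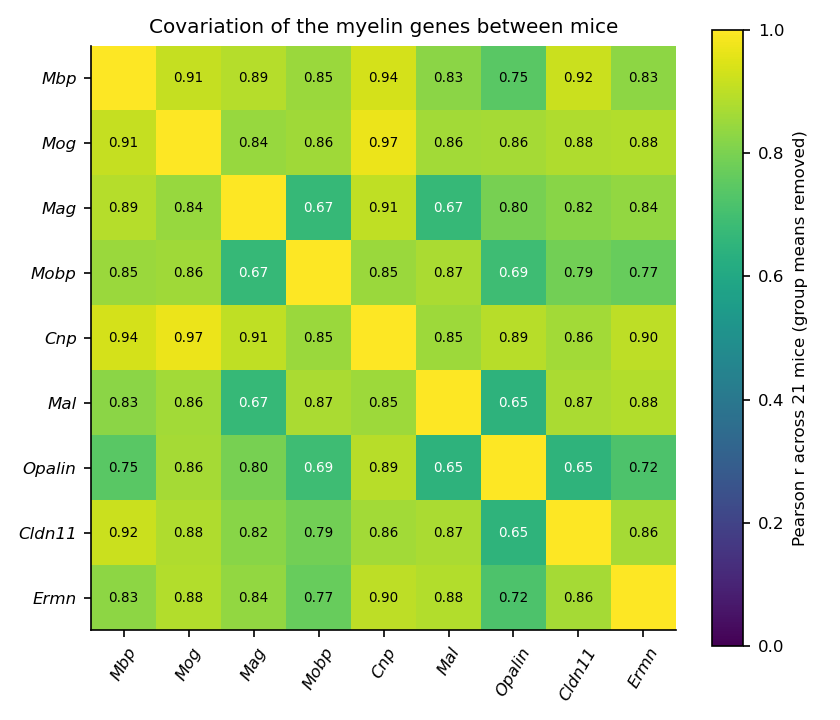
Pearson r between the levels of the 9 members over 21 mice after removal of the group means, with colours from 0 to 1. The values run from 0.645 for Mal with Opalin to 0.969 for Mog with Cnp, and Opalin has the lowest median with the other members, 0.734.

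The genes whose pattern between mice was most like that of the members, by r with their mean over 21 mice, were led by Lpar1, a receptor for lysophosphatidic acid (r = 0.976), Plekhb1 (0.953) and Gatm, an enzyme of creatine synthesis (0.945). They were followed by Klhl4 (0.914), Pmp22 (0.912), a myelin protein best known from peripheral nerve, Snapin (0.912), Bcas1 (0.905), a marker of newly myelinating oligodendrocytes, the gap junction gene Gjb1 (0.896), Tmem125 (0.893) and I830077J02Rik (0.89). The pooled housing difference on the log2 scale was 0.169 for Lpar1, just below the members' range of 0.173 to 0.372. Within that range were Plekhb1 (0.215), Pmp22 (0.247), Bcas1 (0.285), Gjb1 (0.277) and Tmem125 (0.336). Gatm (0.082), Klhl4 (0.092), Snapin (0.075) and I830077J02Rik (0.1) were below it. The most opposed genes were Apex2, a DNA repair nuclease (r = -0.851), Acin1, a nuclear RNA-processing protein (-0.845), and Slc2a3, a glucose transporter of neurons (-0.823).

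Other genes of myelin and oligodendrocytes, a list of 39, followed the members with a median r of 0.761, and 17 of the 39 were at least as close as Opalin. The range ran from -0.18 for Nfasc, which neurons also make, to 0.953 for Plekhb1. Pooled over genotypes, 36 of 39 were higher in enriched mice, with a median difference of 0.22 on the log2 scale. That median was 0.0071 over all genes tested and 0.25 for the members. At an unadjusted p under 0.05, 22 of 39 were higher in the pooled comparison, 3 of 39 in WT mice and 22 of 39 in MSK1 KD mice. Over all genes tested these shares were 9.77, 3.95 and 5.64%. None of the 39 was called in edgeR. Enpp2, a lysophospholipase that the choroid plexus also makes, had the largest pooled difference on the list, 1.26 ± 0.63.

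The enzymes that make the lipids of myelin followed the members less closely, with a median r of 0.53 over 16 genes, and the closest was Cers2, a ceramide synthase (0.881). Their median pooled housing difference was 0.13 on the log2 scale, with 14 of 16 higher and 7 of 16 at an unadjusted p under 0.05. At that level 1 of 16 was higher in WT mice and 6 of 16 in MSK1 KD mice. Scd2, a fatty acid desaturase and the highest in level, was at 0.084 ± 0.044, Hmgcs1, of cholesterol synthesis, at 0.034 ± 0.049, and Elovl7, which had the largest difference, at 0.46 ± 0.25. The 10 transcription factors of the lineage had a median r of 0.186, and Nkx6-2 alone among them was as close as a member (0.88). Olig1 had a pooled housing difference of 0.29 ± 0.084, Myrf, which drives myelin genes in mature cells, 0.075 ± 0.091, and Nkx6-2 0.35 ± 0.12. Of the 10, 2 had an unadjusted p under 0.05 in the pooled comparison, 0 in WT mice and 4 in MSK1 KD mice. None of the 26 genes on these lists was called.

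Markers of oligodendrocyte precursors did not follow the members, with a median r of 0.0657 over 13 genes and a highest value of 0.36 for Neu4. Their median housing difference was 0.017 on the log2 scale, with 8 higher and 5 lower. Ptprz1 was at -0.063 ± 0.071, Tnr at -0.24 ± 0.15 and Bmp4, at a mean of 1.43 CPM, at 0.64 ± 0.36.

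**Figure D5:**
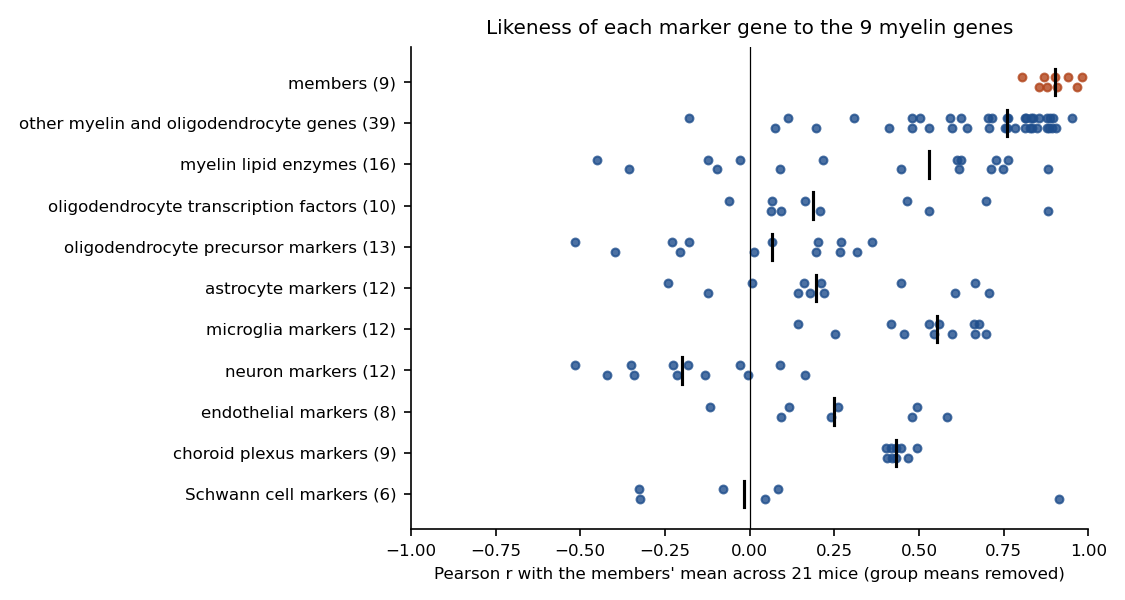
Pearson r of each marker gene with the mean of the 9 members over 21 mice after removal of the group means (for a member, with the mean of the other 8), with the number of genes tested in brackets and the median as a black bar. Other myelin genes reach up to the members, and neuron markers have the lowest median, -0.198.

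Mog, a marker of mature oligodendrocytes, was tested against the mean level of each of 10 lists with 100000 two-sided permutations within groups, adjusted over the 10 relations. It passed with the other myelin and oligodendrocyte genes (r = 0.894, rho = 0.883, adjusted p = 0.0003 by permutation for both) and with the lipid enzymes (r = 0.71, rho = 0.803, adjusted p = 0.0021 and 0.00035 by permutation). It also passed with 12 microglia markers (r = 0.628, rho = 0.656, adjusted p = 0.0257 and 0.0109 by permutation), whose r was 0.55 without WTSH 19, 0.601 without WTEE 10 and 0.602 without KDEE 20, each no longer past the threshold. Without the farthest pair of mice on each list the 3 values were 0.816, 0.657 and 0.606. The other 7 lists did not pass, with r = 0.415 for the transcription factors, -0.0767 for the precursor markers, 0.431 for 12 astrocyte markers, -0.492 for 12 neuron markers, 0.347 for 8 endothelial markers, 0.402 for 9 choroid plexus markers and -0.056 for Schwann cell markers, and adjusted p of 0.112 or more by permutation. Of these, the transcription factors passed without WTEE 10 (r = 0.629, adjusted p = 0.028 by permutation) and the astrocyte markers without WTSH 5 (r = 0.689, adjusted p = 0.0034 by permutation). Of the 8 Schwann cell markers 6 passed the filter on low counts, Pmp2, a fatty acid binding protein of peripheral myelin, had at most 1 count in a library, and Pmp22 was the only 1 of the 6 that followed the members as closely as a member did (0.912). Mog showed r = 0.0847 with log2 depth and 0.000163 with the share of unassigned pairs (adjusted p = 1 by permutation for both, over that pair of relations).

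Markers of other cells moved with housing to differing degrees beside the members, and their part in the housing difference was not tested. Microglia markers were higher in enriched mice in 11 of 12 genes, with a median difference of 0.13 on the log2 scale and 5 of 12 at an unadjusted p under 0.05, and their summed level was 531 to 668 CPM in WTSH, 568 to 862 in WTEE, 483 to 636 in KDSH and 561 to 733 in KDEE. C1qa, a complement gene of microglia, had a pooled difference of 0.40 ± 0.13, and Csf1r, the receptor that keeps them alive, 0.045 ± 0.050. Of 12 astrocyte markers 9 were higher, with a median of 0.083 and 4 at an unadjusted p under 0.05. In WT mice 6 of 12 were higher and 6 lower, with a median of 0.026. In MSK1 KD mice 12 of 12 were higher, with a median of 0.18. The difference between these housing effects was called for 0 of 12. The astrocyte markers summed to 6600 to 8240 CPM in WTSH, 6750 to 7470 in WTEE, 6350 to 7580 in KDSH and 7030 to 8070 in KDEE. Gfap, a filament protein of astrocytes, was at 0.28 ± 0.079, Slc1a2, the glutamate transporter, at -0.078 ± 0.069, and Glul at 0.079 ± 0.058. Endothelial markers were higher in 7 of 8 genes with a median of 0.13 and summed to 157 to 267 CPM over all mice. Flt1 was at -0.015 ± 0.093, Cldn5 at 0.21 ± 0.16 and Ly6c1 at 0.25 ± 0.14. Neuron markers were higher in 6 and lower in 6 of 12 genes, with a median of 0.016 and 0 of 12 at an unadjusted p under 0.05. Their sums were 11100 to 12500 CPM in WTSH, 9800 to 12600 in WTEE, 11300 to 12400 in KDSH and 11100 to 12400 in KDEE. Camk2a was at -0.063 ± 0.091, Snap25 at -0.00077 ± 0.050 and Prox1, of dentate granule cells, at -0.15 ± 0.11. The 6 Schwann cell markers tested were evenly split, with Drp2 at -0.18 ± 0.073, Pmp22 at 0.25 ± 0.068 and Egr2 at -0.31 ± 0.23.

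Choroid plexus, which lies against the hippocampus in the ventricle, was carried over in some libraries. Its 9 markers were all higher in enriched mice, with a pooled median difference of 2.32 on the log2 scale, and 0 of 9 were called. The median was 0.51 in WT mice and 3.86 in MSK1 KD mice. Ttr, which carries thyroid hormone in the cerebrospinal fluid, had the largest pooled difference, 3.46 ± 1.39. Kl, second to Ttr in level, had the smallest, 1.17 ± 0.60. The summed level of the 9 was 2710 to 9830 CPM in WTSH 19, WTEE 10, WTEE 13, KDEE 12 and KDEE 14, and 120 CPM or less in the other 16 libraries, among them all 5 KDSH mice. The part of this tissue in the levels of the members was not tested beyond the following comparison. Without these 5 libraries the mean housing difference of the members was 0.32 on the log2 scale in WT mice, 0.26 in MSK1 KD mice and 0.29 pooled, against 0.20, 0.30 and 0.25 with them. The number of members at an unadjusted p under 0.05 was then 6, 5 and 9 of 9, beside 4.93, 12.3 and 14.6% of all genes in either direction, and 0 of 9 were called in any comparison.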

How the data were processed

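The deposited values are raw counts per gene symbol in 24 libraries, which the authors obtained from Skewer-trimmed reads with STAR 2.5 (GRCm38) and HTSeq 0.6.1p1, using unique alignments and no strand. Steps before the counts cannot be repeated here. Of 49568 symbols, 47206 matched 1 GENCODE M21 gene, whose merged exons gave lengths. In 21 libraries (27410239 to 71907130 counts on genes), differences came from edgeR 4.0.16 (R 4.3.3), by its quasi-likelihood test after TMM scaling and filterByExpr, with a single model for all groups and Benjamini-Hochberg adjustment over 20187 genes. For p-values and intervals, differences were set against the spread between mice, with each mouse taken as a separate observation. The study assigned housing by cage and the cage of each mouse is not given. Effects of a shared cage can therefore not be told apart from those of housing. Correlations used group-centred log2 CPM with a prior count of 2, tested with 100000 permutations within groups (smallest p 1e-05). The scripts were tested on simulated data. Figures were drawn with matplotlib 3.10.9.

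The members and the marker lists were chosen with earlier results of these data known. By rule, the genes named are the members, Rps6ka5, the 10 genes most like the members and the 3 most opposed, and of each list any gene called, otherwise the pair with the highest level and the 1 with the largest housing difference. Genes at the ends of a list's range of r were named after their values were seen. Some genes that this rule names are not reported here. Mouse numbers are unique, so mice were not paired. Alternatives were the Wald test of DESeq2 1.42.0, RLE size factors, no filter on low counts, all 24 libraries, no threshold on the fold change and leaving out each library. For correlations they were Spearman's rho, group means kept, RLE size factors, unscaled log2(count + 1), all 24 libraries and leaving out each library. Leaving out libraries rich in choroid plexus markers and the relations of Mog with depth and with unassigned reads were added after the data were seen.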

Additional observations from a re-analysis of the deposited data

Results flagged for a closer look

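The 9 members and their mean were tested in 4 groups of 4 to 6 mice, which makes 40 tests, and 5 values lay far from the others of their group by a Dixon test at the 95% level, where chance gives about 1 in 20 for a single test. The members covary, so the tests are not independent and the number of values cannot be read against that rate. All 5 belonged to the pair of standard-housed mice with high myelin genes. Mbp was at 4100 CPM in WTSH 19, and Mal was at 270 CPM in the same mouse. In KDSH 18, Mog was at 74.3 CPM, Mobp at 1310 and Mal at 290. The summed choroid plexus markers were at 4460 CPM in WTSH 19 and at 43.6 CPM in KDSH 18.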

How the results depend on the processing

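The count of 0 of 9 members called held in all 7 comparisons under each alternative, including leaving out each of 21 libraries. The mean log2 difference of the members moved by less than 0.194, the SD between mice of a group, under every alternative for which it was computed. It was not computed for the Wald test of DESeq2. This bound is wide, being close to the mean housing difference in WT mice (0.203) and larger than each mean genotype difference, so a change of sign can fall within it. Leaving out single libraries gave a mean housing difference of 0.127 to 0.351 in WT mice, 0.24 to 0.407 in MSK1 KD mice and 0.215 to 0.327 pooled over genotypes. For Ermn in WT mice leaving out single libraries gave -0.0295 to 0.253. The small genotype differences changed sign between settings, with a mean of -0.174 to 0.0824 for KDSH minus WTSH and of -0.0713 to 0.0581 for MSK1 KD minus WT when single libraries were left out, and the mean difference between the housing effects of the genotypes was then -0.0486 to 0.204. The number of lists that passed with Mog was 7 of 10 with group means kept and 10 of 10 with unscaled log2 counts, which share the depth of each library, and unscaled r was 0.706 for precursor, 0.656 for neuron and 0.596 for Schwann cell markers. Leaving out single libraries gave r of Mog from -0.288 to 0.103 with precursor and from -0.224 to 0.152 with Schwann cell markers, and 2 to 4 lists passed. The median r of the 36 pairs was 0.802 to 0.935 under all alternatives. No paired analysis was possible because no mouse number occurs in more than 1 group. DESeq2 called 118 genes between KDEE and WTEE, 41 for pooled housing, 20 for the interaction, 14 between KDEE and KDSH and 2 between WTEE and WTSH, where edgeR called 0, 1, 0, 0 and 0. Depth left at least 231 counts of Opalin, the lowest member, in every library, so counting error was small beside the spread between mice, and groups of 4 to 6 mice limit the precision.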
